A study of Drosophila melanogaster with 2 samples.

Results

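MicroRNA genes of Drosophila melanogaster were placed against the sites at which the zinc finger protein Ken, tagged with enhanced GFP, was recovered on embryonic chromatin. All 260 genes with a transcript annotated as a microRNA precursor on the main chromosome arms were taken, of 262 in the annotation and of 17796 annotated genes of every kind on those arms. No measured value entered their choice. Hairpins on the same strand and at most 10000 bp apart were joined into 203 loci. The material was whole embryos of a ken-GFP strain, aged 0 to 24 h, which carry an insertion targeting ken. It formed 1 group with 2 biological replicates and no second condition. Chromatin sheared to 200 to 800 bp was precipitated with an anti-GFP antibody according to the sample descriptions, although another label field names ken as the antibody. Because whole embryos of all stages were mixed, the cells in which a site was occupied are not known. The number of reads per library is not known from the peak lists, and no input or mock library was analysed here.

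A microRNA begins as a hairpin within a longer transcript. In the nucleus the hairpin is cut out by Drosha with its partner Pasha, or released by splicing where a short intron is itself the hairpin (a mirtron), and in the cytoplasm Dicer cuts it to a short duplex. One strand is loaded into an Argonaute protein, and its seed, bases 2 to 8, pairs with messenger RNAs, which are then repressed or degraded. The hairpin is therefore not where transcription begins. Its promoter can be that of a protein-coding host gene, that of a long non-coding RNA, or a start site that the annotation does not hold. Ken is the product of the gene ken and barbie, and this repressor is known for limiting the response of some JAK-STAT targets.

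The seed groups most concerned here are shown by their mature strands, read from the RefSeq release 6 assembly at its annotated positions and printed 5′ to 3′ with the seed in capitals. All 260 hairpins had identical coordinates in RefSeq and Ensembl. Each group holds 1 hairpin with a nearby Ken-eGFP site, named first, and relatives without one, so that the reader can see how alike the products are. The positions, on dm6, are chr3R:25646560-25646581 (+) for mir-92a, chr3R:25651457-25651478 (+) for mir-92b, chr3R:20735977-20735997 (+) for mir-995, chr3L:11946107-11946128 (-) for mir-285, chr3R:21621902-21621922 (-) for mir-998, chr3L:10365281-10365302 (+) for mir-276a, chr3L:10319846-10319867 (+) for mir-276b, chrX:280188-280209 (-) for mir-980 and chr3L:11552624-11552645 (-) for mir-4968.
mir-92a-3p: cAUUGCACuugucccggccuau
mir-92b-3p: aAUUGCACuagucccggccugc
mir-995-3p: uAGCACCAcaugauucggcuu
mir-285-3p: uAGCACCAuucgaaaucagugc
mir-998-3p: uAGCACCAugagauucagcuc
mir-276a-3p: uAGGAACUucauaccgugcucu
mir-276b-3p: uAGGAACUuaauaccgugcucu
mir-980-3p: uAGCUGCCuugugaagggcuua
mir-4968-5p: uAGCUGCCacgguuuguugcuu

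Few microRNA genes had a Ken-eGFP site nearby. In the conservative peak list, made from both replicates and holding 2031 peaks on the main arms, a peak summit lay within 1000 bp of the hairpin for 19 of the 260 genes, or 7.31%. Measured from the hairpin's 5′ end the count was 17, or 6.54%. For comparison, 14.5% of all annotated genes had a conservative summit within 1000 bp of their 5′ end. Among the 3568 non-coding genes other than microRNAs the percentage was 7.32, and among the 13968 protein-coding genes it was 17.2 with any annotated transcription start site (TSS) counted. The microRNA genes thus stood at the level of other non-coding genes and below that of protein-coding genes. Over loci the count was 17 of 203, or 8.37%, with an exact 95% interval of 4.95 to 13.1% that covers counting error only and treats loci as independent.

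The typical microRNA hairpin was far from any site. The median distance from a hairpin to the nearest conservative summit was 17529.5 bp, with quartiles of 5370 and 35161 bp and a range from 25 to 2195254 bp. The median distance was 14386 bp from the nearest TSS of a protein-coding gene and 26229 bp from the 5′ end of another non-coding gene. Hairpins outside protein-coding genes, here called intergenic, had a median distance of 16327.5 bp, against 17832.5 bp for hairpins in an intron and 18701 bp for hairpins that overlapped an exon or lay only partly within a gene. The curves of the microRNA classes ran below that of protein-coding genes at short range and close to it beyond 10000 bp.

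**Figure D1:**
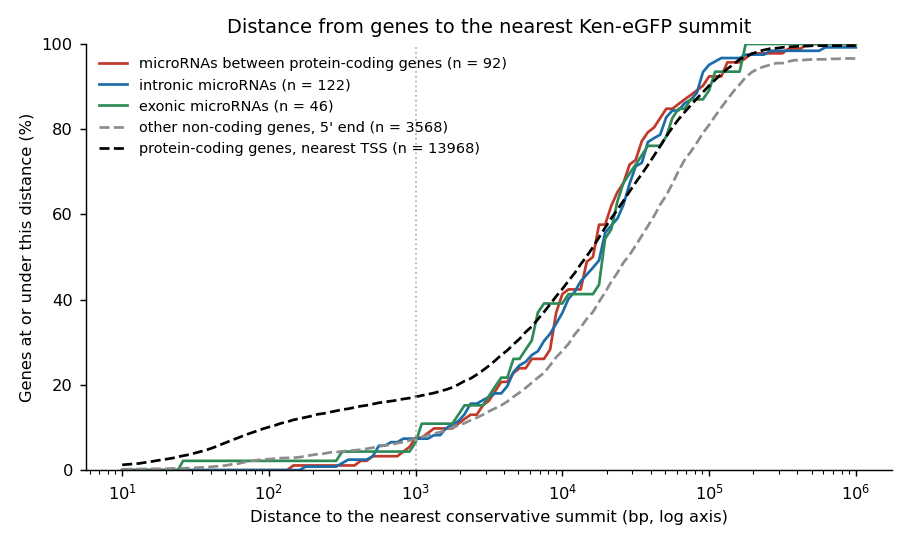
Cumulative percentage of genes (vertical axis) at or under each distance in bp to the nearest conservative Ken-eGFP summit (horizontal log axis), for 3 classes of microRNA gene, protein-coding genes and other non-coding genes; the dotted line marks 1000 bp. At 1000 bp the protein-coding curve stands at 17.2% while intergenic, intronic and exonic microRNAs stand at 7.61, 7.38 and 6.52%.

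Intronic and intergenic microRNA genes had nearby summits in similar shares. The counts were 9 of 122 intronic genes, or 7.38%, 7 of 92 intergenic genes, or 7.61%, and 3 of 46 exonic genes, or 6.52%. Intronic hairpins on the strand of their host had a nearby summit in 7 of 100 cases, and those on the opposite strand in 2 of 22. Among the 34 hairpins that filled a whole intron, the arrangement of a mirtron, 4 had a nearby summit. By arm, the counts were 1 of 56 on 2L, 5 of 55 on 2R, 3 of 31 on 3L, 4 of 58 on 3R, 6 of 58 on X and 0 of 2 on chromosome 4.

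Hairpins close to a protein-coding promoter had a nearby summit more often than hairpins far from one. Of the 66 hairpins within 1000 bp of a protein-coding TSS, 16 had a summit within 1000 bp, or 24.2%. Of the 194 hairpins farther away, 3 did, or 1.55%, and these were mir-8, mir-276a and mir-318. None of the 89 intronic hairpins farther from a TSS had one, and for their 72 loci a count of 0 has an exact 95% upper bound of 4.99%. The genome itself showed the same contrast, since 11.2% of all bases within 1000 bp of a protein-coding TSS lay within 1000 bp of a conservative summit, against 0.543% of bases farther away. Across all bases the share was 2.66%, and it was 1.75% outside protein-coding genes, 1.53% in introns and 5.82% in exons.

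**Figure D2:**
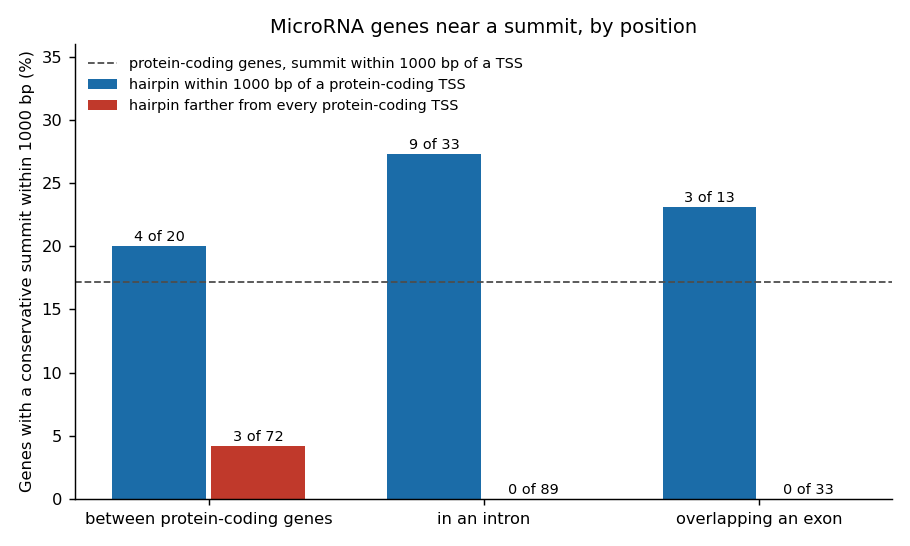
Percentage of microRNA genes with a conservative summit within 1000 bp of the hairpin (vertical axis, from 0), by annotation class and by whether the hairpin lay within 1000 bp of a protein-coding TSS; counts stand above the bars, and the dashed line is the 17.2% of protein-coding genes with a summit within 1000 bp of a TSS. Hairpins near a TSS reached 20 to 27.3% in each class, while among those farther away only intergenic hairpins had any, 3 of 72.

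The 19 genes shared 17 distinct summits, of which 13 lay within 500 bp of a protein-coding TSS. Among all conservative summits 80.6% did. For 9 of the 19 genes the promoter with the summit was that of the gene that contained the hairpin, and for 6 it was that of another gene. No conservative summit fell within a hairpin. The summit lay on the 5′ side of the hairpin for 13 genes and on its 3′ side for 6.

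**Figure D3:**
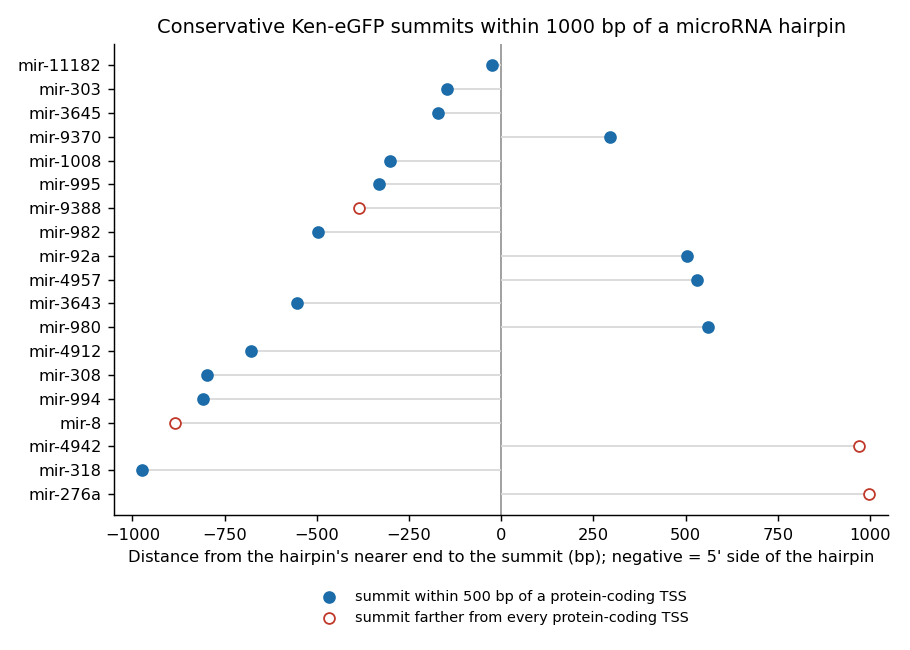
Distance in bp from the nearer end of each hairpin to its nearest conservative summit (horizontal axis; the hairpin is at 0 and negative values are its 5′ side) for the 19 microRNA genes with a summit within 1000 bp. Filled points mark summits within 500 bp of a protein-coding TSS and open points the summits of mir-9388, mir-8, mir-4942 and mir-276a, which were farther from every such TSS.

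The genes with a summit at a promoter of their own host were mir-11182, mir-3645, mir-1008, mir-995, mir-92a, mir-4957, mir-3643, mir-4912 and mir-308. Limits for mir-92a and mir-4957 are given below. The hairpin of mir-995 lies in an intron of Cdk2, a cell cycle kinase, at chr3R:20735923-20736012. Its summit was 331 bp from the hairpin and 31 bp from a Cdk2 TSS, with a pooled signal of 172.3 and replicate signals of 84.9 and 95.26. The signal is the authors' value, has no stated scale and ranks peaks within a list. The signals of both replicates were thus close together at this promoter.

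The hairpin of mir-308 lies in an intron of RpS23, which encodes a protein of the small ribosomal subunit, and shares its seed with 13 other microRNA genes of the mir-2, mir-5, mir-6, mir-11 and mir-13 group, none of which had a nearby summit. Its summit was 798 bp away, 35 bp from an RpS23 TSS, with a pooled signal of 135.2 and replicate signals of 53.26 and 75.9. Replicate 1 alone did not reach its threshold there.

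The hairpin of mir-92a lies in an intron of jigr1, a gene of the MADF domain family, which also contains mir-92b. Its nearest summit lay 503 bp beyond the 3′ side of the hairpin and 143 bp from a jigr1 TSS, with a pooled signal of 128.6 and replicate signals of 44.87 and 83.04. This peak was absent from the thresholded list of replicate 1. That jigr1 TSS lay 646 bp from the hairpin, also on its 3′ side, so a transcript starting there does not contain mir-92a. Another conservative summit lay 21 bp from a jigr1 TSS and had a signal of 234.2. It was the summit nearest to mir-92b, at 3233 bp, outside the 1000 bp window. The other 4 genes with this seed, mir-310 to mir-313, lie in a cluster whose hairpins were 3239 to 3659 bp from the nearest summit.

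The mirtron-like hairpins were mir-3645, mir-1008, mir-3643 and mir-4912. For mir-3643, in OstDelta, which encodes a subunit of the oligosaccharyltransferase, the summit was 554 bp from the hairpin and 56 bp from the host TSS, with a pooled signal of 335 and replicate signals of 137.7 and 201. For mir-4912, in Fnta, which encodes a farnesyltransferase subunit, it was 678 bp away and 24 bp from the TSS, with a pooled signal of 208.2 and replicate signals of 94.57 and 113.5. For mir-3645, in Mlc-c, which encodes a cytoplasmic myosin light chain, it was 171 bp away and 48 bp from the TSS, with a pooled signal of 186.5 and replicate signals of 83.83 and 100.1. At these 3 hosts replicate 2 had the higher signal and the peak was in the lists of both replicates. For mir-1008, in CG18004, it was 302 bp away and 14 bp from the TSS, with a pooled signal of 95.09 and replicate signals of 53.66 and 49.64. That peak was in the list of replicate 2 only.

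The closest summit to any hairpin belonged to mir-11182, which overlaps an exon of CG5726. It lay 25 bp from the hairpin and 33 bp from the host TSS, with a pooled signal of 159.1 and replicate signals of 86.33 and 81.9. The hairpin of mir-4957 lies on the strand opposite to its host Top1, which encodes DNA topoisomerase I. Its summit was 532 bp away and 57 bp from a Top1 TSS, with a pooled signal of 279.6 and replicate signals of 116.2 and 161.6. On the opposite strand a hairpin is not part of the host transcript, so this summit marks the promoter of Top1 rather than one known to serve mir-4957.

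For the other 6 promoter cases the summit lay at a gene that did not contain the hairpin. The clustered mir-994 and mir-318, the latter with the seed of mir-3 and mir-309, shared 1 summit, 809 and 974 bp from their hairpins and 43 bp from a TSS of CG6325. Its pooled signal of 363.1 was higher than that of 94.1% of all conservative peaks, and its replicate signals were 177.2 and 181.4. The neighbouring mir-303 and mir-982 shared a summit 146 and 496 bp away, 23 bp from a TSS of CG3626, with a pooled signal of 101.3 and replicate signals of 57.71 and 46.98. A pair of neighbours thus counted for 2 genes but 1 site in both cases.

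The hairpin of mir-980, at chrX:280172-280269, lies within CG3777 on the opposite strand. Its summit was 561 bp away and 23 bp from a TSS of ewg, which encodes a transcription factor related to NRF1, with a pooled signal of 286.8 and replicate signals of 119 and 165.3. The hairpin of mir-9370 overlaps an exon of Amun. Its summit was 296 bp away and 5 bp from a TSS of FucT6, an alpha-1,6-fucosyltransferase gene, with a pooled signal of 133 and replicate signals of 60.58 and 62.76. Both peaks were in the lists of both replicates.

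The remaining 4 summits lay over 500 bp from every protein-coding TSS. The strongest of all 17 was at mir-8, the fly member of the miR-200 family, which is known for acting in growth and in neurons. It lay 884 bp upstream of the hairpin (chr2R:16831432-16831518) and 3676 bp from the nearest protein-coding TSS, that of CG34460. Its pooled signal of 403.4 exceeded that of 96.3% of conservative peaks, and the replicate signals were 160.7 and 237.9. This summit lay 141 bp from a TSS of lncRNA:CR43650, the non-coding gene on the same strand that contains mir-8. It was thus at an annotated start site of the non-coding gene that holds the hairpin. Whether the transcript from that start contains mir-8 was not checked.

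The weakest was at mir-276a, known for roles in the nervous system. It lay 998 bp from the hairpin (chr3L:10365228-10365325), on its 3′ side, 46495 bp from a protein-coding TSS and 2304 bp from a TSS of the containing lncRNA:CR46006. Its pooled signal was 82.03 and its replicate signals were 36.42 and 36.22. The peak was in neither replicate list nor in the other pooled list, and it was the only one of the 17 of which this held. With the distance taken from the hairpin's 5′ end, mir-276a and mir-4942 were outside 1000 bp.

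The last 2 distal summits were at or beside copies of the transposable element INE-1. At mir-9388 the summit was 387 bp upstream of the hairpin and 928 bp from a TSS of Mes2, with a pooled signal of 125.9 and replicate signals of 76.93 and 45.4. It lay 11 bp from an INE-1 copy. At mir-4942, which overlaps an exon of ND-MLRQ, a gene for a respiratory complex I subunit, the summit was 969 bp from the hairpin and 980 bp from the host TSS, inside an INE-1 copy. Its pooled signal was 84.84, its replicate signals were 52.83 and 36.9, and it was absent from the list of replicate 2. The other pooled list also held a summit inside the mir-4942 hairpin, 29 bp from the ND-MLRQ TSS, with a pooled signal of 69.8 and replicate signals of 26.06 and 49.39. In the ranked list behind the conservative peaks that candidate was below the threshold. Of the 393 conservative summits over 500 bp from a TSS, 39 lay inside an annotated element, or 9.92%, against 47 of all 2031, or 2.31%. Without summits within 100 bp of an element, 17 microRNA genes had a nearby summit. The part that multiply mapped reads play at these elements was not tested.

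The windows of 101 bp centred on these 2 summits, from the RefSeq release 6 assembly on the plus strand, are chr3L:22944679-22944779 for mir-9388 and chr3L:23340256-23340356 for mir-4942. They are shown because they share a run of 21 bases, in capitals, in opposite orientation. In both windows the run lay within the annotated INE-1 copy, at chr3L:22944658-22944718 and chr3L:23339885-23340321, so it is sequence of the element.
mir-9388 summit: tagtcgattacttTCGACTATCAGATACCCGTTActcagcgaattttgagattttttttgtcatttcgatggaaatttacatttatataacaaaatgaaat
mir-4942 summit: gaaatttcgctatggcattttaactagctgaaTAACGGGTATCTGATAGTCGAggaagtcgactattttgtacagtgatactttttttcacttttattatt
This run occurred 66 times on the main arms, counting both strands. It lay within 100 bp of 13 conservative summits, or 0.64%, and of 21 of the 146877 candidates below the threshold, or 0.0143%. The run was chosen after these windows were compared, and their 2 summits are among the 13. These shares are therefore description only.

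Both replicates had a candidate peak within 200 bp of every one of the 17 summits. The peak was in the thresholded list of replicate 1 for 13, of replicate 2 for 15 and of both for 12, while 54.9% of all conservative summits were in both. The signal was higher in replicate 2 at 11 summits and in replicate 1 at 6. The log2 ratio of replicate 1 to replicate 2 had a median of -0.17 at these summits, with a range of -0.89 to 0.76, beside a median of -0.16 and an SD of 0.57 over all conservative summits. The median pooled signal was 159.1 at the 17 summits, with a range of 82.03 to 403.4, and 127.3 over all conservative peaks on the main arms. With 2 replicates of 1 group these values show the spread between the replicates and support no test.

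**Figure D4:**
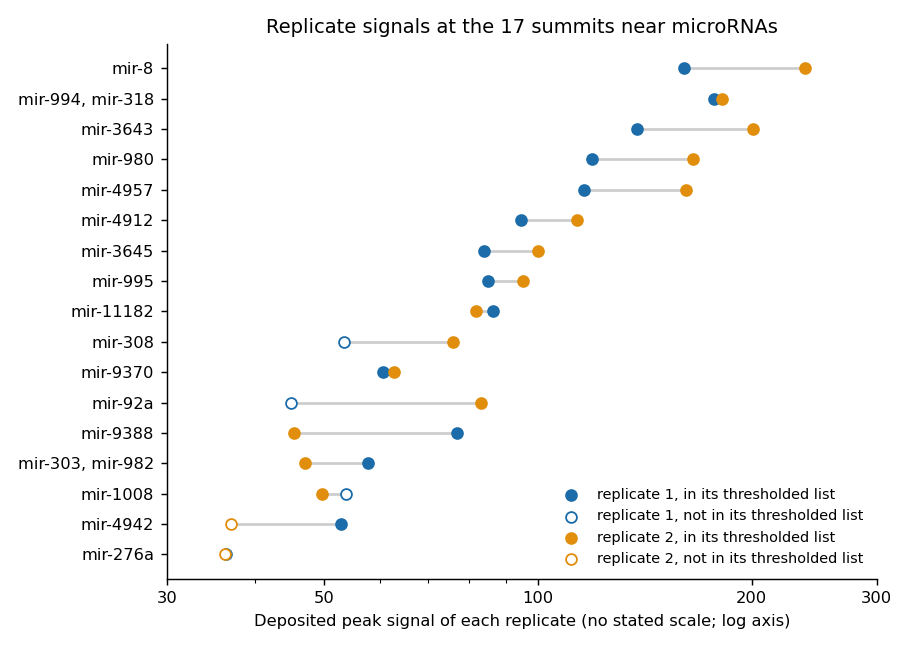
Deposited signal of each replicate (horizontal log axis, no stated scale) at the 17 conservative summits near microRNA genes, ordered by pooled signal; blue is replicate 1, orange replicate 2, and open circles mark summits absent from the thresholded list of that replicate. Open circles sit in the lower part of the plot, at mir-308, mir-92a, mir-1008, mir-4942 and mir-276a, where the points of both replicates coincide.

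Which genes were called moved little between peak lists made from both replicates or from 1. The other pooled list placed a summit near 20 genes, 18 of them shared with the conservative list, where 18.6% of protein-coding genes were called. It added mir-279 and mir-4909 and lacked mir-276a. The list of replicate 1 placed one near 16 genes, 15 of them shared and mir-279 added, with 13.2% of protein-coding genes called. The list of replicate 2 placed one near 18 genes, 17 of them shared and mir-4911 added, with 16.3% of protein-coding genes called. In each list the percentage of microRNA genes, 7.69, 6.15 and 6.92, was below that of protein-coding genes.

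Just inside the limit of 1000 bp lay mir-4942, mir-318 and mir-276a, at 969, 974 and 998 bp. Just outside lay mir-9380 at 1028 bp, mir-2497 at 1061 bp and mir-10 at 1122 bp. The summit for mir-9380 was 9 bp from a TSS of Atg13, an autophagy gene, with a signal of 163.8. That for mir-2497 was 6 bp from a TSS of its host her, a gene of the sex determination pathway, with a signal of 191.8. The summit beside mir-10, a microRNA of the Antennapedia complex between Hox genes, was distal, 16548 bp from a TSS of Dfd. Its signal was 69.07 and its replicate signals were 42.71 and 31.28. It passed in neither replicate alone.

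Since a hairpin can be far from the promoter that serves it, host promoters were examined as well. Among the 130 protein-coding genes that hold a hairpin on their own strand, 32 had a conservative summit within 1000 bp of a TSS, or 24.6%. Among all protein-coding genes the share was 17.2%. Any annotated TSS was counted, and the number of TSSs per gene was not adjusted for. Whether a transcript from the TSS concerned contains the hairpin was not checked, so these promoters are not shown to serve the microRNAs. For 22 of these 32 hosts no hairpin was within 1000 bp of a summit. The median distance from a hairpin to the summit at such a host was 4373 bp over the 32. At grp, which encodes a checkpoint kinase and holds mir-9b, mir-9c, mir-79 and mir-306, a summit with a signal of 366.4 lay 33 bp from a TSS and 17903 bp from the nearest of these hairpins. At HnRNP-K, which holds mir-7, known for acting in photoreceptor differentiation, a summit of 145 lay 52 bp from a TSS and 18568 bp from the hairpin. At bun the summit of 414.3 lay 86664 bp from mir-967, the longest such distance; bun was chosen after its values were seen. E2f1, the host of mir-11, spi, the host of mir-2a-1, and CCT2, the host of mir-13b-2, had their nearest summits 10926, 3079 and 2615 bp from a TSS.

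The start sites of non-coding hosts were marked about as often as those of other non-coding genes. The 51 microRNA genes inside a non-coding gene of the same strand belonged to 37 such hosts, and 2 of these, or 5.41%, had a conservative summit within 1000 bp of a TSS, beside 7.32% of non-coding genes other than microRNAs by their 5′ ends. They were lncRNA:CR43650, described above with mir-8, and lncRNA:CR43314, which holds mir-bft, the microRNA gene also called mir-263a and known for protecting sensory bristles. The latter summit lay 69 bp from the host TSS, 17522 bp from the hairpin and 10566 bp from a protein-coding TSS, with a signal of 69.51 and replicate signals of 35.44 and 40.17. Neither was within 500 bp of a protein-coding TSS. The host of the mir-100, let-7 and mir-125 cluster, lncRNA:let7C, came next at 1119 bp, with a summit of 173.3 that was 11 bp from a TSS of bsf.

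The microRNAs best known from fly development stood near the level of all microRNA genes. Of 32 such genes, 2, or 6.25%, had a conservative summit within 1000 bp, namely mir-8 and mir-276a, 5 had one between 1000 and 5000 bp, and 22 had none within 10000 bp. Over all 260 genes the share within 1000 bp was 7.31%. The median distance was 14146 bp for the 32 genes and 17529.5 bp for all. The growth regulator bantam (mir-ban) was 10638 bp from the nearest summit, and let-7 (mir-let7), which acts in developmental timing, was 17436 bp away. The muscle gene mir-1 was 5801 bp away and the neural gene mir-124 was 65243 bp away. For mir-9a the distance was 33592 bp.

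The cluster of the early embryo that includes mir-309 and mir-286, whose products clear maternal messenger RNAs, was 8082 and 8335 bp from a summit at the TSS of hrg. In the bithorax complex, mir-iab-4 and mir-iab-8, which lie on opposite strands of 1 site, were 26049 bp from a summit 177 bp from a TSS of abd-A, with a signal of 74.44 that passed in neither replicate alone. The neighbours mir-996 and mir-279, which act in sensory cell fate, were 2835 and 4431 bp from a summit 57 bp from a TSS of eEF1gamma, with a signal of 251.3. The farthest of the list were mir-184, at 96627 bp, and mir-124.

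**Figure D5:**
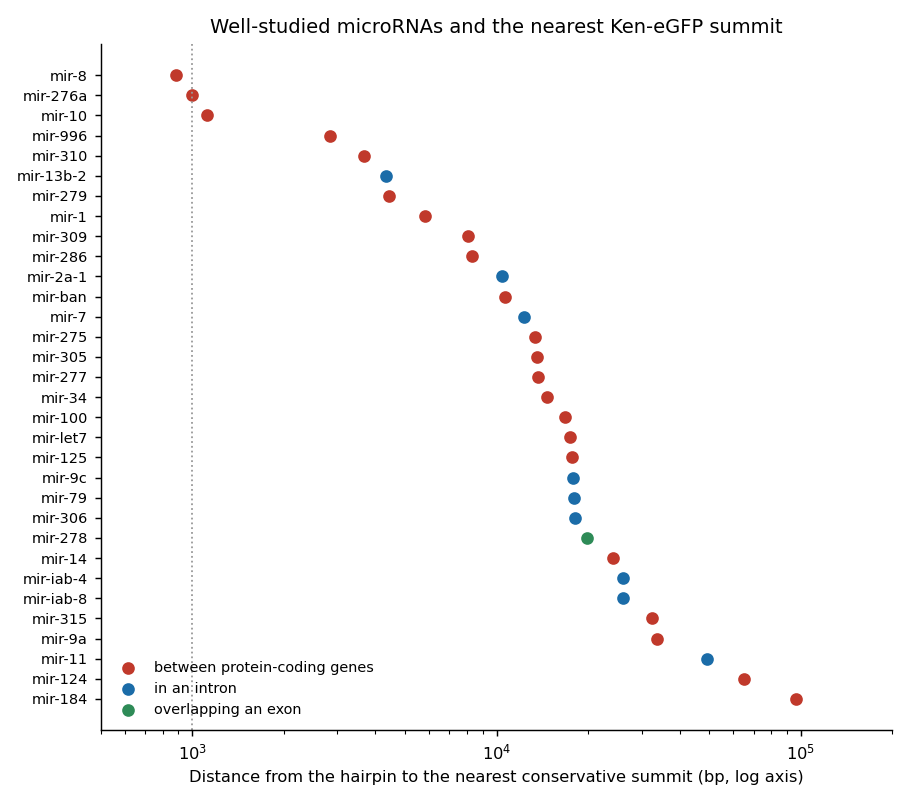
Distance in bp (horizontal log axis) from the hairpin of each of 32 well-studied microRNA genes to the nearest conservative summit, coloured by annotation class; the dotted line marks 1000 bp. Only mir-8 at 884 bp and mir-276a at 998 bp are left of the line, and the farthest is mir-184 at 96627 bp.

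Candidate peaks of any rank were common beside microRNA hairpins, as they were elsewhere. In the pooled ranked list from which the conservative peaks came, 221 of 260 genes, or 85%, had a candidate of any rank within 1000 bp. Of protein-coding genes, 89.3% had one within 1000 bp of any annotated TSS. A gene with several TSSs was thus searched over more sequence than a hairpin. In the other pooled ranked list 227 had one, and in those of replicates 1 and 2 the counts were 225 and 218. A candidate near a hairpin is thus the usual state and sets no microRNA apart. For 201 genes there was no conservative summit nearby and at least 1 candidate below the threshold. Their highest such candidate had a median percentile of 81.8 among candidates below the threshold. Over 9905 protein-coding genes with no nearby summit the same median was 83.4, and the length of sequence searched per gene was not matched.

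A further 81 ranked candidates on the main arms reached the threshold of the conservative list without being in it. Of the 202 genes with a candidate but no conservative summit within 1000 bp, 2 had such a candidate as their highest. That beside mir-9374, which overlaps an exon of Hr39, was 519 bp from the hairpin with a pooled signal of 80.58, the highest of the 202, and replicate signals of 48.37 and 34.41. That beside mir-4949 was 665 bp away with a signal of 69.28, of 34.59 in replicate 1, and had no candidate within 200 bp in replicate 2. Neither gene had a summit within 1000 bp in any thresholded list.

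The highest candidate below the threshold was beside mir-279, 992 bp from the hairpin, with a pooled signal of 76.88, a percentile of 99.9, and replicate signals of 57.28 and 9.194. Replicate 1 was thus far higher than replicate 2 there, which is where the list of replicate 1 and the other pooled list called mir-279. The next below the threshold were beside mir-1012 and mir-932, with signals of 66.87 and 65.88. A candidate of 65.44 lay 585 bp from mir-305 and 737 bp from mir-275, which are transcribed as 1 cluster. Beside bantam the highest candidate was 544 bp away with a signal of 50.62 and a percentile of 97.1.

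Among the sequence words of fly promoters, only CGATA was found at most of the summits near microRNA genes. Its share there was close to that at all conservative summits. The word TATCGATA, the core of the DNA replication-related element of fly housekeeping promoters, was found within 100 bp on either strand at 7 of the 17 summits, or 41.2%, at 29.4% of all conservative summits and at 0.493% of candidates below the threshold. The shorter CGATA, which TATCGATA contains, was found at 13 of 17, or 76.5%, at 75.3% of all conservative summits and at 20.4% of candidates below the threshold. It was present at 12 of the 13 summits at a protein-coding TSS and at 1 of the 4 others, that of mir-4942. Among all conservative summits the corresponding percentages were 84.9 and 35.1. The word GGTCACACT, part of the core promoter word called motif 1, was at 2 of 17, those of mir-4957 and mir-308, and at 4.28% of all. The Ken consensus GNGAAAG or GNGAAAT was at 6 of 17, or 35.3%, at 23.2% of all conservative summits and at 25.2% of candidates below the threshold.

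The window at the Top1 promoter beside mir-4957, chrX:15319372-15319472 on the plus strand, is shown because it held 4 matches to CGATA, all on the minus strand and so read here as TATCG, in capitals. The window at mir-276a, chr3L:10366273-10366373, held none.
mir-4957 summit: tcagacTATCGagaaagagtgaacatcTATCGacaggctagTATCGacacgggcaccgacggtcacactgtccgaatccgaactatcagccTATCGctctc
mir-276a summit: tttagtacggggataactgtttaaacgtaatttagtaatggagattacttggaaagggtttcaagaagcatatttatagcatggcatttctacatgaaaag
The share of G and C was 51.5% in the window at mir-4957 and 32.7% in that at mir-276a. A match to a word describes the sequence and is not evidence of what was bound.

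Most seed groups were small, and with 7.31% of all genes near a summit a second near gene in a group of 2 or 3 would be uncommon. This may not hold for the larger groups of mir-308, with 14 genes, and mir-92a, with 6. Several of their genes lie together in clusters, so they are not independent of each other. The distances of relatives are given as description. The 481 annotated mature strands carried 426 distinct seeds, of which 33 occurred in 2 or more genes. Of the groups shown above, each had 1 gene with a nearby summit. The hairpin of mir-995 was near the Cdk2 summit, whereas mir-285 and mir-998, with the same AGCACCA seed, were 47012 and 49776 bp from a summit. Likewise mir-276b, whose 5p strand is identical to that of mir-276a, was 46440 bp from one, and mir-4968, with the seed of mir-980, was 9568 bp from one. In the group of mir-318, mir-3 and mir-309 were 8193 and 8082 bp from a summit.

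Genes of proteins that make or use microRNAs, and of related steps, were examined at their promoters. The list also held RNA interference genes such as Dcr-2, r2d2 and AGO2. It further held general genes of cap binding and deadenylation, so its share is not one of dedicated microRNA factors. Of 21 genes listed, 8 had a conservative summit within 1000 bp of a TSS, or 38.1%, beside 17.2% of all protein-coding genes. The count fell to 2, Cbp20 and Cbp80, at a global IDR of 0.001, where 904 of the 2031 conservative peaks remained. The share of all protein-coding genes at that threshold was not computed. No gene of the nuclear cutting step was among them, with drosha and pasha 15511 and 29159 bp from a summit. Neither Dcr-1, whose product cuts the microRNA hairpin in the cytoplasm, nor loqs, the gene of its partner, had one, at 14149 and 3823 bp.

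The 8 genes with a summit were AGO1, AGO2, r2d2, Cbp20, Cbp80, Not1, Pop2 and twin. AGO1, the Argonaute of microRNAs, had a summit 150 bp from a TSS, where the signal was 121.9 and the replicate signals were 54.57 and 66.64. AGO2, the Argonaute of RNA interference, had one 7 bp away with a signal of 110 and replicate signals of 54.7 and 53.51. The summit at r2d2, a partner of Dicer-2, was 96 bp away with a signal of 107 and replicate signals of 37.12 and 67.81. Replicate 2 was higher at AGO1 and r2d2, and the replicates were level at AGO2.

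The cap-binding genes Cbp20 and Cbp80 had summits 141 and 79 bp from a TSS, whose signals were 162.7 and 295.1. The genes of the CCR4-NOT deadenylase, which shortens the tails of repressed messenger RNAs, had summits 30 bp from a TSS for Not1, 3 bp for Pop2 and 80 bp for twin, with signals of 144.9, 66.94 and 111.1. The other 13 genes had none: drosha, pasha, Dcr-1, loqs, gw, Ranbp21, Dcr-2, Hen1, Nbr, Tailor, ldbr, Ars2 and me31B. The count rested on replicate 2 for several genes. In the list of replicate 2 alone all 8 had a summit within 1000 bp, and in that of replicate 1 alone 4 did, which were AGO2, Cbp20, Cbp80 and Not1. Of all protein-coding genes, 16.3% had one in the list of replicate 2 and 13.2% in that of replicate 1.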

How the data were processed

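The authors deposited peak lists from chromatin immunoprecipitation sequencing, with coordinates on dm6 per the labels. Neither the aligner nor the peak caller is named in these sources. Each peak has a signal deposited by the authors without a stated scale. Its deposited score, a transform of the irreproducible discovery rate (IDR) capped by the authors, was used only to match lists. A −log10 of the global IDR was deposited by the authors in each ranked list, and every conservative peak had at least 2.001. The 16 columns of single-input values in the pooled ranked lists were not used, since no header ties them to a replicate. Replicate signals were those of the nearest candidate summit within 200 bp in the ranked list of that replicate.

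Gene models were those of Ensembl release 115, restricted to the main arms. Its gene biotype does not name microRNAs, so genes with a precursor microRNA transcript were taken. A site was a summit base, and distances ran from the nearest hairpin end, checked on simulated summits. Intronic hairpins lay within a protein-coding gene and outside its exons. Named genes were those with a nearby summit, the 3 on each side of 1000 bp, the 5 with the highest candidates and the listed well-studied ones. Other genes are named as hosts or neighbours. Members and lists were chosen with earlier results of these data known. Python 3.11.15, pandas 2.3.3, numpy 2.4.6 and scipy 1.17.1 were used. No test was run, because there is 1 group. Alternatives were the other lists, single replicates, a global IDR of 0.001, and other windows and distances.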

Additional observations from a re-analysis of the deposited data

How the results depend on the processing

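Of 58 alternative values, 41 stayed within 1.5 times the reported count or within the SD of the median distance over the 2 single-replicate lists, 2103 bp, and 17 did not. At a global IDR of 0.001, 10 microRNA genes in 9 loci kept a summit within 1000 bp, 3 of them intergenic. Of the summits, 8 lay at a protein-coding TSS. The median distance was 39049 bp, and 2 of the listed protein genes remained. With a window of 500 bp the counts were 8 genes, 7 loci, 3 intergenic, 3 intronic and 6 summits at a TSS. With 2000 bp they were 32 genes, 28 loci, 15 intronic and 22 summits at a TSS. The list at a global IDR of 0.001 held 904 peaks on the main arms. Fewer peaks and other windows change these counts by construction. From 1 replicate alone the count was 16 to 18 genes and the median distance 18138.5 to 21113 bp. The count of listed protein genes was then 4 to 8. No paired analysis was possible because the series has 1 group. Leaving out summits within 100 bp of a transposable element was chosen after seeing the data. Read depth is unknown, so a microRNA without a peak is not shown to be unoccupied, and without a control library the level of background is not known.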
